A study of Homo sapiens with 14 samples.

Results

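KMT2D occupancy was examined around a set of p53-type growth arrest genes, CDKN1A, SFN, PERP, GADD45B and BTG2, in SCC23, a human HNSCC (head and neck squamous cell carcinoma) cell line. A peak was assigned to a gene when its summit, the base with most signal, lay within 50 kb of the gene's interval on GRCh37 (hg19). The intervals were 36.644 to 36.655 Mb of chromosome 6 for CDKN1A, 27.190 to 27.191 Mb of chromosome 1 for SFN, 138.410 to 138.429 Mb of chromosome 6 for PERP, 2.476 to 2.478 Mb of chromosome 19 for GADD45B, and 203.275 to 203.279 Mb of chromosome 1 for BTG2. They are given to the nearest 1 kb, so every distance from a gene start carries an error of that order. Of the 13808 KMT2D peaks in the list, 22 met the rule, at 4 of the 5 genes. The peaks came from 1 ChIP-seq library, an anti-KMT2D immunoprecipitation from KMT2D-WT cells deprived of glucose for 6 hours. The series labels describe 14 libraries, with an input and antibodies to histone H3 and its modifications in KMT2D-WT and KMT2D-KO cells as the others, and these were not analysed here. There was therefore no replicate, no KMT2D-KO background and no glucose-fed sample beside the values, and no difference between peaks could be tested against the spread of replicates.

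KMT2D is a histone methyltransferase that places H3K4 monomethylation mainly at enhancers, and its peaks mark sites of occupancy, not of transcription. The genes encode proteins that restrain dividing or damaged cells, and most of them are known as targets of p53. In stratified epithelia several of these genes are also controlled by the p53 relative p63. CDKN1A encodes p21, an inhibitor of cyclin-dependent kinases. SFN encodes stratifin, an epithelial member of the 14-3-3 family that holds cell cycle regulators in the cytoplasm. PERP encodes a membrane protein of desmosomes that also takes part in p53-dependent cell death. GADD45B encodes a stress sensor upstream of p38 and JNK signalling, and BTG2 encodes an antiproliferative protein that links mRNAs to the deadenylation machinery. The peak list measures neither p53 activity nor the expression of these genes, so the label of the set could not be checked against it.

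The promoters of SFN, PERP, GADD45B and BTG2 are shown. For CDKN1A, which is not shown, the promoter values below belong to a start 2251 bases inside the gene. At SFN, PERP and GADD45B a peak reached to within 1 kb of the start of the interval, and at BTG2 no peak lay within 50 kb. The sequences are the 250 bases before the start in RefSeq on GRCh38.p14, and all 5 genes had an entry there. They were read by gene name, on the gene's own strand. GRCh38 positions were not carried over to the GRCh37 peaks. SFN is chr1:26862899-26863148 on the plus strand, PERP is chr6:138107420-138107669 on the minus strand, GADD45B is chr19:2475877-2476126 on the plus strand and BTG2 is chr1:203305269-203305518 on the plus strand. Capitals mark matches, on either strand, to the AP-1 motif TGANTCA, the TATA box TATAAA, the GC box GGGCGG, the CCAAT box and the TEAD motif CATTCC.
SFN: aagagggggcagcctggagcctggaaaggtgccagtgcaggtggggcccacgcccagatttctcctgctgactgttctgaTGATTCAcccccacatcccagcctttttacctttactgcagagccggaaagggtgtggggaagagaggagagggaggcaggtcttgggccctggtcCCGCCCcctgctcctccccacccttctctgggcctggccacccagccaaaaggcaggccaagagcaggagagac
PERP: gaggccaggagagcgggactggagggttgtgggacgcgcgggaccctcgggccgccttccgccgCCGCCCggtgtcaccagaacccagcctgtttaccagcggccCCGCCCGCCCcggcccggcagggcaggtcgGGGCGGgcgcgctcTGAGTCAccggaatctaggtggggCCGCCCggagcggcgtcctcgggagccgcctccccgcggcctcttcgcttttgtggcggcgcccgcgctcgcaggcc
GADD45B: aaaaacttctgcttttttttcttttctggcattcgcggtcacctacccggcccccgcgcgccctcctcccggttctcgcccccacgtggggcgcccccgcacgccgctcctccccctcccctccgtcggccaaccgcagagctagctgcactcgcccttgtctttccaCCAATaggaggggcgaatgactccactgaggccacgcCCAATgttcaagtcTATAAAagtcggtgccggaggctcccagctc
BTG2: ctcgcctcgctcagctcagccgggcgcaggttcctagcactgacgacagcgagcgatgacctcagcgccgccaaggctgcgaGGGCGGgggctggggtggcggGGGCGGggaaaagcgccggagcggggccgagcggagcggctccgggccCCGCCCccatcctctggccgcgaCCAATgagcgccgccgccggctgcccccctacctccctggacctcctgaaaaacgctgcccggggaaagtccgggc

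These promoters differed in their elements. SFN and PERP each held 1 AP-1 match, TGATTCA at 170 bases before the SFN start and TGAGTCA at 101 bases before the PERP start, and the motif occurred in 6.57% of 35116 promoters of the same length. GADD45B alone among the 5 held a TATA box, 31 bases before its start, as did 10.7% of all promoters, and it had 2 CCAAT boxes and no GC box. PERP held 5 GC boxes, CDKN1A 4, BTG2 3 and SFN 1, and 42.6% of all promoters held at least 1. The PERP promoter was 77.2% G and C, CDKN1A 76.4%, BTG2 74.8%, GADD45B 63.2% and SFN 62.8%, above the median of 58% in all promoters. None of the 5 promoters matched the TEAD motif, which 11.9% of all promoters held, or the consensus of a p53 half-site, which 5.57% held. CANNTG, the E-box, was found once in each of CDKN1A, SFN and GADD45B and in 61.8% of all promoters. These matches describe letters in a short window and do not show binding.

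The number of peaks differed widely between the genes. SFN had 9 peaks within 50 kb, GADD45B 6, CDKN1A 4, PERP 3 and BTG2 0. For scale, chromosomes 1 to 22 and X were tiled into 29292 windows of 100 kb, of which 79.4% held no peak and 5.59% held at least 3 peaks. Windows with at least as many peaks made up 0.277% for SFN, 1.22% for GADD45B and 3.33% for CDKN1A. On chromosome 19, where peaks are denser, 3.06% of windows held as many peaks as GADD45B. The tiles include gene-poor sequence and are slightly shorter than the gene windows, so this comparison does not show that the genes stand apart from other genes. The absence of peaks at BTG2 was shared with 75.7% of the windows on chromosome 1.

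**Figure D1:**
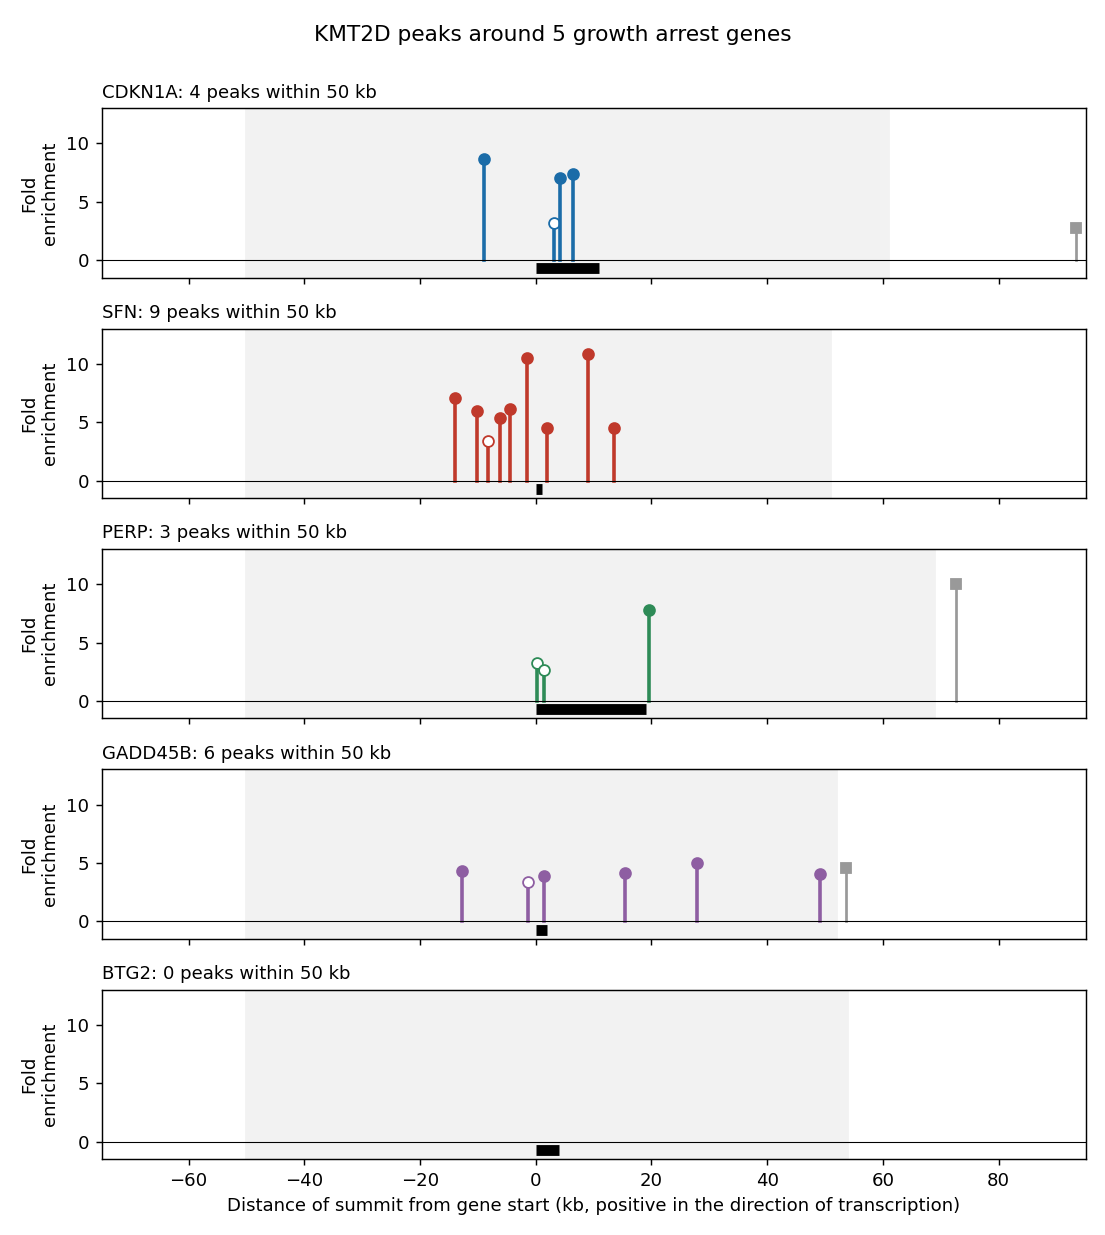
KMT2D peaks around each gene, drawn with the gene start at 0 on the horizontal axis (kb, positive in the direction of transcription) and fold enrichment at the summit on the vertical axis. Black bars are the genes, grey shading the 50 kb limit, filled circles peaks with a q-value of at most 0.05, open circles the other peaks, and grey squares the first peaks beyond the limit where these fall inside the plotted range. SFN has 9 peaks on both sides of the gene, PERP has its highest peak of 7.82 at the far end of the gene, and BTG2 has none.

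Signal at each peak was given by MACS2 as a fold enrichment, ChIP pileup, scaled to the control, divided by local background at the summit. The number of ChIP fragments behind it was solved from that ratio together with its p-value, and the 95% intervals below are exact Poisson intervals on these fragments with the background taken as known. They cover counting error only. Each summit was picked as the base with most signal in a site that entered the list. The intervals do not correct for that selection. The 22 peaks had a median fold enrichment of 4.75 (range 2.66 to 10.8), beside 3.93 over the whole list. The list also holds peaks on other contigs, and on chromosomes 1 to 22 and X its median was 4.01. A median of 29.5 fragments lay over their summits (range 12 to 59), beside 25 in the list. Of the 22 peaks, 16 lay above the median fold enrichment of the list, 9 above its upper quartile of 5.39 and 1 below its lower quartile of 3.14. Of the 22 peaks, 17 passed a q-value threshold of 0.05 (77.3%, 95% exact Clopper-Pearson interval 54.6 to 92.2%), where 58.5% of all peaks passed it, so that the interval of the members' share held the share of the list. The peaks of one gene share a chromatin neighbourhood and are not independent, and SFN alone supplied 8 of these 17. Without SFN, 9 of 13 peaks (69.2%) reached the threshold and the median fold enrichment was 4.12. That median was near the 4.01 of chromosomes 1 to 22 and X.

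**Figure D2:**
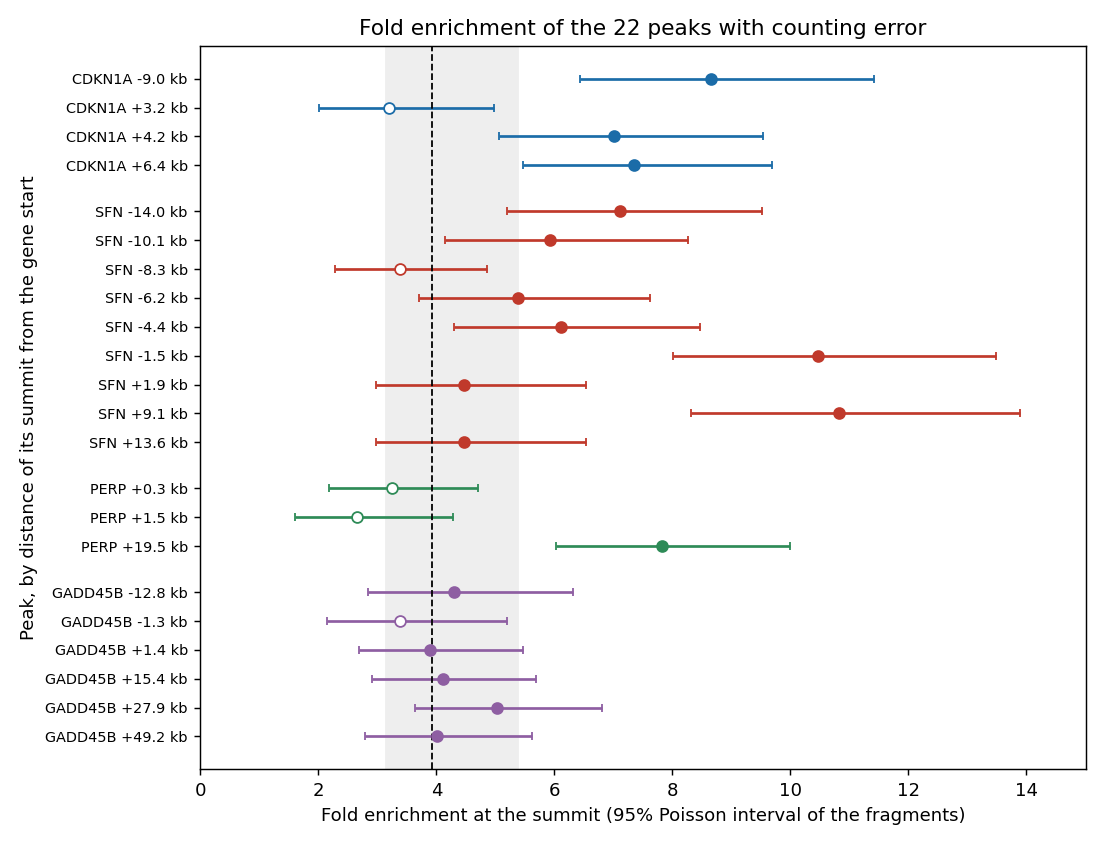
Fold enrichment of each of the 22 peaks with its 95% Poisson interval, labelled by gene and by the distance of the summit from the gene start (kb). Filled circles are peaks with a q-value of at most 0.05, the dashed line is the median of the whole list (3.93) and the grey band its interquartile range (3.14 to 5.39). The 2 highest SFN peaks lie wholly above the band, as do the CDKN1A peaks at 8.65 and 7.35 and the PERP peak at 7.82. Each of the 6 GADD45B intervals crosses the band.

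CDKN1A, the p21 gene, had 1 peak upstream and 3 inside the gene. The upstream peak, at chromosome 6 positions 36634856 to 36635271, lay 9.0 kb before the start and was the strongest, with a fold enrichment of 8.65 (95% interval 6.44 to 11.4) and 45 fragments over the summit. It exceeded 92.8% of the peaks in the list. Inside the gene, the peak at 36650097 to 36650904 lay 6.4 kb after the start with a fold enrichment of 7.35 (5.47 to 9.69) and 45 fragments. Its neighbour at 36647664 to 36648414 had 7.02 (5.06 to 9.53) and 36 fragments. These 3 intervals overlapped and gave no order among the peaks. The peak closest to the start, at 36647105 to 36647460, had only 15 fragments, a fold enrichment of 3.20 (2.00 to 4.97) and a q-value of 0.994, and its interval lay below those of the other peaks of the gene.

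The position of that weak peak depends on which CDKN1A transcript is meant. In RefSeq the start with a promoter entry lies 2251 bases inside the gene, after the first start of the gene. On GRCh37 the weak summit was 3.2 kb and the next 4.2 kb from the start of the interval. No base of a CDKN1A peak came closer than 3.1 kb to that interval start. Measured from the inner start, the weak peak would lie nearer. That distance was not computed. The interval start is known only to about 1 kb, so whether the weak peak reaches within 1 kb of the inner start was not settled. The lncRNA genes PANDAR and DINOL, both tied to the p53 response, also lie beside CDKN1A in RefSeq. RAB44 was the only other protein-coding gene with a name there within 50 kb, and which gene a peak serves was not measured.

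SFN, the stratifin gene, carried the densest group. Its 9 peaks spanned 27.6 kb between the outermost summits, with 6 upstream, 3 downstream and none inside the gene, and a median step of 3.1 kb between neighbouring summits. The strongest peak lay 9.1 kb after the start, at chromosome 1 positions 27198844 to 27199292, with a fold enrichment of 10.8 (95% interval 8.32 to 13.9) and 57 fragments. Only 442 peaks of the list (3.20%), this one included, reached that value. The next was 1762 bp wide, at 27187881 to 27189642, with its summit 1.5 kb before the start, a fold enrichment of 10.5 (8.0 to 13.5) and 55 fragments. Both intervals overlapped almost completely and gave no order between these peaks.

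The other SFN peaks were lower, between 3.38 and 7.10. Farthest upstream, 14.0 kb before the start, the peak at 27175739 to 27176209 had 40 fragments and a fold enrichment of 7.10 (5.20 to 9.51). The lowest, 8.3 kb before the start, had 24 fragments, a fold enrichment of 3.38 (2.28 to 4.86) and a q-value of 0.0782, and it was the only SFN peak above a q-value of 0.05. Intervals did not overlap in 10 of the 36 pairs of SFN peaks. Pairs across the list were not counted, so this does not show that SFN peaks are uneven beside other peaks. When peaks separated by up to 12.5 kb were stitched, all 9 fell into 1 cluster of 28.0 kb, and 31 of the 1071 clusters of at least 3 peaks in the list (2.89%) held as many peaks. ZDHHC18, GPN2, GPATCH3, NUDC and NR0B2 lie within 50 kb of SFN in RefSeq, so that the cluster stands among several genes and cannot be assigned to SFN alone.

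PERP, the desmosomal gene, showed a weak start and a strong far end. The peak at chromosome 6 positions 138428074 to 138428762 had its summit 0.3 kb inside the start, with 23 fragments, a fold enrichment of 3.25 (95% interval 2.18 to 4.71) and a q-value of 0.291. A smaller peak 1.5 kb from the start had 12 fragments, a fold enrichment of 2.66 (1.60 to 4.28) and a q-value of 1. At the opposite end, the peak at 138409063 to 138409750 had its summit 0.5 kb beyond the gene end, 59 fragments, the most of any of the 22 peaks, and a fold enrichment of 7.82 (6.03 to 9.99). Its interval lay above those of both peaks at the start, though it was picked as the highest of the gene. The local background, the signal expected without KMT2D binding, was 1.83 times the genome-wide level at this peak and at the peak nearest the start, and 1.00 times at the other. PERP had no other gene within 50 kb in RefSeq.

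GADD45B, the stress sensor gene, had the narrowest range of fold enrichment among the genes with peaks. Fold enrichment ran from 3.38 to 5.03, and none of the 15 pairs of intervals was separate. No share over pairs of the list was computed beside this count. Summits here held 16 to 37 fragments, which leaves wide intervals, so their overlap does not show that the peaks were equal. The peak over the start, at chromosome 19 positions 2475824 to 2477482, was 1659 bp wide with a fold enrichment of 3.89 (95% interval 2.69 to 5.47), 28 fragments and a q-value of 0.0180. Its summit lay near its downstream edge, 1.4 kb after the start. A narrow peak 1.3 kb before the start had 16 fragments, a fold enrichment of 3.38 (2.14 to 5.20) and a q-value of 0.217. The highest value, 5.03 (3.64 to 6.80) with 37 fragments, belonged to the peak at 2503604 to 2504072, 27.9 kb after the start.

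The remaining GADD45B peaks lay 12.8 kb before the start and 15.4 and 49.2 kb after it, with 21, 32 and 29 fragments. Local background was 1.83 times the genome-wide level or above at 4 of the 6 peaks and reached 2.01 times 15.4 kb after the start, the only one of the 22 peaks at or above 2 times. In the list, 18.6% of peaks had such a background, and 15.2% of those on chromosomes 1 to 22 and X. TMPRSS9, TIMM13, LMNB2 and GNG7 lie within 50 kb of GADD45B in RefSeq, and the peaks were not assigned to one of these genes.

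BTG2 had no peak within 50 kb and none within 100 kb. The closest peak downstream, at chromosome 1 positions 203481922 to 203482232, lay 203.1 kb beyond the gene end with a fold enrichment of 5.63 (95% interval 4.15 to 7.49) and 42 fragments. Upstream the first peak was 298.3 kb away and weak, with 11 fragments and a fold enrichment of 2.39 (1.42 to 3.91). A site had to gather 11 fragments over a background of 2.88, a fold enrichment of 2.48, to enter the list at the genome-wide background. KMT2D occupancy at BTG2 below that level was not detectable at this depth, and the empty window is no measure of 0 occupancy.

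**Figure D3:**
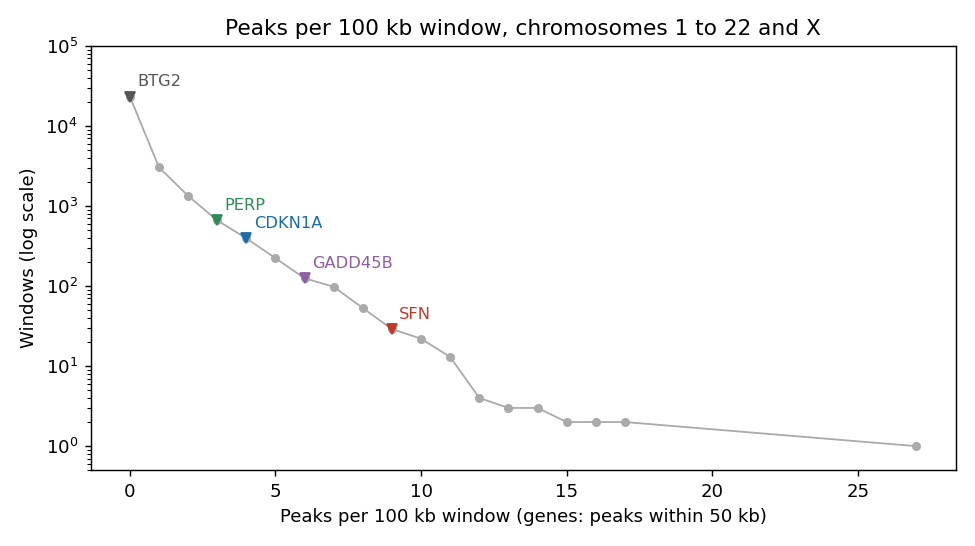
Number of 100 kb windows of chromosomes 1 to 22 and X (vertical axis, log scale) by the number of KMT2D peaks they hold (horizontal axis), as grey points. Triangles mark the 5 genes at their own number of peaks within 50 kb. BTG2 sits with the 79.4% of windows without a peak and SFN where 0.277% of windows hold as many peaks or more.

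The peak with the highest fold enrichment lay 9.0 kb before the start at CDKN1A, 9.1 kb after it at SFN, 19.5 kb after it at PERP and 27.9 kb after it at GADD45B. At CDKN1A and PERP its interval lay above that of the peak nearest the start, whereas at SFN and GADD45B these intervals overlapped. Picking the highest peak of a gene favours such a separation, so it is a description only. Fold enrichment of these strongest peaks was highest at SFN (10.8), followed by CDKN1A (8.65), PERP (7.82) and GADD45B (5.03). They were picked from 9 peaks at SFN, 4 at CDKN1A, 3 at PERP and 6 at GADD45B. A maximum tends to rise with the number of peaks, so this order does not rank the genes. Of the 6 pairs among these 4 peaks, only the intervals of SFN and GADD45B did not overlap, with no share over pairs of the list computed beside it. Overlap of the other intervals does not show that those peaks were alike. With the interval edge as the start, a summit within 1 kb was found at PERP only. That peak did not reach a q-value of 0.05. Counting any base of a peak instead of its summit, 3 genes (SFN, PERP and GADD45B) had a peak within 1 kb of that edge. For CDKN1A these counts hold for the interval edge only, since the RefSeq start with a promoter entry lies 2251 bases inside the gene.

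The peak nearest the start by its summit had a fold enrichment of 3.20 at CDKN1A, 3.25 at PERP and 3.38 at GADD45B, where the peak over the start had 3.89, against 10.5 at SFN. The interval at SFN (8.0 to 13.5) lay above the intervals of all of these. Of all 22 summits, 9 lay upstream of their gene, 6 inside it and 7 downstream, and 20 lay within 20 kb of the gene start. SFN alone supplied 9 of these 20. The rule admits only summits within 50 kb of a gene, and no share over the list was computed. Peaks wider than 1000 bp numbered 2 of 22 (9.09%), at SFN and GADD45B, beside 5.48% of the list. Stitching placed members in 4 clusters. These were the 9 peaks at SFN, 4 at CDKN1A over 16.0 kb and 3 at the GADD45B start over 14.5 kb. The last was a cluster of 5 in which only the outermost GADD45B peak was a member. Of the 1071 clusters of the list, 50.2% held at least as many peaks as the CDKN1A cluster. For the cluster of 5 the share was 24.9%, and for the GADD45B start it was 100%, as 3 peaks was the minimum. PERP had no cluster.

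**Figure D4:**
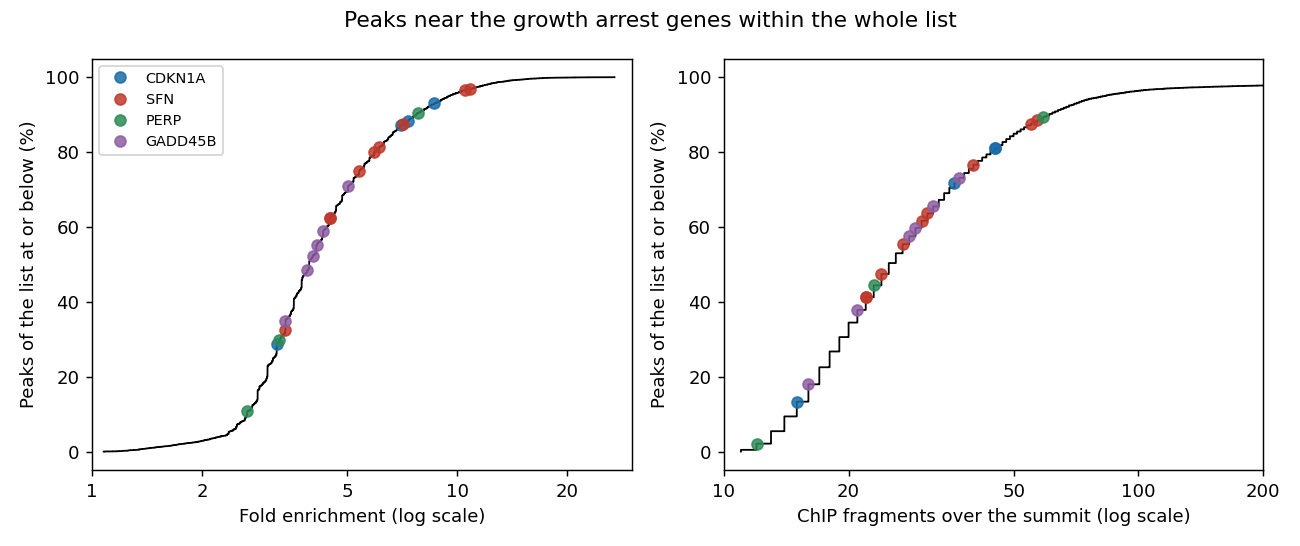
Cumulative share of the 13808 peaks of the list (vertical axis, percent at or below) by fold enrichment (left) and by ChIP fragments over the summit (right), both on log scales. Coloured points are the 22 peaks near the genes. The highest point is an SFN peak at 10.8, with 3.20% of the list at or above it, the GADD45B peaks gather about the middle of the curve, and the lowest point is a PERP peak with 12 fragments.

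The outermost member lay 47.2 kb beyond the end of GADD45B with a fold enrichment of 4.01. Just outside, 51.7 kb beyond that end, was a peak with 4.53, and 53.7 kb beyond the end of PERP was one with 10.0 (95% interval 7.65 to 12.9) and 55 fragments, higher than any PERP member. The first peaks outside CDKN1A were 81.7 and 82.3 kb away and had fold enrichments of 3.03 and 2.74. Around SFN they were 90.6 kb upstream with 3.20 and 135.1 kb downstream with 9.38.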

How the data were processed

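ChIP-seq reads were aligned by the authors to GRCh37 (hg19) using Bowtie2, and unique alignments went into MACS2 with a p-value threshold (the list reaches up to 0.00984). The control library is not named in the methods, nor is any pooling mentioned. The deposited fold enrichment is a ratio of scaled ChIP pileup to local background at the summit, each with a pseudocount of 1. The deposited −log10 p-value and −log10 q-value are MACS2's for the same base, and the deposited score is derived from the −log10 p-value.

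The fragments at a summit and its background were solved from both deposited columns, with the fragments a whole number. A common scale of 0.381 fitted all 13808 peaks within 0.02 of the deposited −log10 p. The method was tested on simulated data. The genome-wide background was 2.88 fragments. The study's reporting form states single-end reads, and total depth was not analysed here.

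Samples were grouped by antibody and genotype from the labels. Gene intervals were those of the rule that defines the set, whose members and lists were chosen with earlier results of these data known. RefSeq tables on GRCh38.p14 gave strands, neighbouring genes and promoters, and no coordinate was converted. Other p53 target genes were listed for analysis but need a GRCh37 annotation, so they were not analysed here. Named items were the strongest, the start-nearest and any wide peak of each gene, and the first peaks beyond 50 kb. The PERP peak 1.5 kb from the start, the other CDKN1A, SFN and GADD45B peaks given with values, and PANDAR and DINOL were chosen after their values were seen. Alternatives were other distances, q-value thresholds, gaps, cluster sizes and definitions of the gene start, and a filter on local background. Scripts ran in Python 3.11.15 with pandas 2.3.3, numpy 2.4.6, matplotlib 3.10.9 and scipy 1.17.1.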

Additional observations from a re-analysis of the deposited data

How the results depend on the processing

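Of 27 alternative values, 22 stayed within 1.5 times the count, the interval of the share or the interquartile range of the members' fold enrichment, and 5 moved. These limits were wide, 54.6 to 92.2% for the share and 3.92 to 7.08 for fold enrichment. Counting any base of a peak within 50 kb again gave 22 peaks. Staying within the limits is therefore a weak check. The number of peaks was 22, and 20 at a distance of 25 kb, 31 at 100 kb, 17 and 15 under q-values of at most 0.05 and 0.01, and 13 without SFN, an alternative chosen after seeing the data. BTG2 had 0 peaks at 100 kb too. The 25 kb distance and the q-value thresholds could only return 0 there, since BTG2 had no peak within 50 kb. The median fold enrichment ran from 4.12 without SFN to 6.11 under the q-value threshold of 0.01, against 4.75, since a q-value threshold removes weak peaks by construction. The share of peaks with a q-value of at most 0.05 ran from 69.2% without SFN to 77.3% when distance, overlap or background was changed. The stricter value of 0.01 was passed by 68.2% of the members, beside 47.7% of the list. That share was set against the interval for the threshold of 0.05. The number of genes with a peak at the start of the interval was 1. It was 3 with summits within 2500 bp, 3 with any base of a peak within 1 kb, and 0 with a q-value of at most 0.05. Clusters numbered 4, and 2 when at least 5 peaks were required, by construction. No paired analysis was possible because only 1 of the 14 samples was analysed. With 1 library, the list cannot show which peaks would recur in another.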

Other observations

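Within 500 kb of the gene interval, CDKN1A had 24 peaks, SFN 23, GADD45B 22, PERP 18 and BTG2 11. For scale, tiles of 1 Mb over chromosomes 1 to 22 and X held a mean of 4.46 peaks and a median of 2, and 65.0% of these tiles held a peak. At least as many peaks as around BTG2 were found in 13.8% of tiles, and as many as around CDKN1A in 2.14%. The shares were 2.38% for SFN, 2.96% for GADD45B and 5.30% for PERP. The tiles include gene-poor sequence and are slightly shorter than the gene windows, so these shares do not set the genes apart from other genes. Within 250 kb of the genes the numbers were 10 for CDKN1A, 16 for SFN, 13 for GADD45B, 11 for PERP and 1 for BTG2. No tiles of matching size were counted beside these numbers. SFN held 9 of its 23 peaks within 50 kb, PERP 3 of 18 and CDKN1A 4 of 24. These counts were chosen after the peaks at the genes had been seen and were not tested.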
